A study of Sus scrofa with 2 samples.

Results

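Pig chromosome 14 was followed from its first to its last array probe in an angiosarcoma-like liver tumor and in control liver tissue. Its members were all non-control probes that the array design places on this chromosome, 11823 of 177440 probes or 6.66% of the array, and this rule uses the design's positions alone. Array-based comparative genomic hybridization (aCGH) was done on genomic DNA, with tissue DNA in the Cy3 channel and reference liver DNA in the Cy5 channel. There was 1 array for the tumor and 1 for the control tissue. By the labels the tumor was taken 10 months after 200 mg/kg of diethylnitrosamine (DENA), a liver carcinogen, and they name paraffin-embedded, micro-dissected female liver. For the control tissue, the sources used here give no statement on whether the animal received DENA. Without replicates no test between the tissues was possible, no p-value is given, and spread is stated over probes or over windows of 1 array. The arrays lay on separate slides, and the slide therefore cannot be told apart from the tissue.

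In aCGH a probe lies at 0 on the log2 scale when tissue and reference carry the same relative amount of that DNA, below 0 when the tissue carries less and above 0 when it carries more. Only the relative amount is seen, because each array is centred on its own median, and normal cells that remain in a dissected lesion draw the ratio toward 0. Pig chromosome 14 is acrocentric, meaning that its centromere sits close to one end and nearly all of its genes lie on a single long arm. In the RefSeq table of assembly Sscrofa11.1 it holds 1181 protein-coding genes. Read along the chromosome they include CHEK2, a DNA damage kinase, NF2 and SMARCB1, tumor suppressors in humans, FAS, a death receptor, SUFU, an inhibitor of Hedgehog signaling, FGFR2, a growth factor receptor, and MGMT, which repairs alkylated guanine. The array design uses another build, which the files do not name, and its last chromosome 14 probe ends at 148507870, so no window or interval was tied to a gene.

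Probes of 45 bases covered the chromosome from 2776 to 148507870, and neighbouring probe starts lay 10175 bp apart in the median. The largest stretch without a probe was 567 kb, from 140081121 to 140648100. Chromosome 14 gave brighter signals than the autosomes at large. With background subtracted, the tumor had a median signal of 79.1 and its reference 143, against 68.5 and 117 over chromosomes 1 to 18. On the control array these medians were 57.4 and 111, against 48.6 and 92.3. Both channels were well above background at 83.2% of the chromosome 14 probes on the tumor array and at 80.8% on the control array. No probe of the chromosome was saturated, and 1 probe with an outlier flag was left out on the control array.

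Over 149 windows of 1 Mb, with 22 to 104 probes each, the median of the tumor array was -0.07 on the log2 scale of tissue against reference (SD over windows 0.17). The control array had a median of -0.03 over the same windows (SD 0.09). Window medians of the tumor lay between -0.46 and 0.32, and those of the control tissue between -0.20 and 0.24. In the tumor 94 windows, or 63.1%, were below 0, and in the control tissue 89, or 59.7%. Over chromosomes 1 to 18 these shares were 43.9% and 46.2%. Windows at or below -0.25 numbered 16 in the tumor, a share of 10.7%, where 12.1% of all autosomal windows were that low. Windows at or above 0.25 numbered 7, or 4.70%, where 9.46% of all autosomal windows were that high. In the control tissue no window of chromosome 14 reached either limit, and over the autosomes 0.326% and 0.699% did. By number, then, low windows were about as frequent on chromosome 14 as elsewhere on the tumor array, and high windows were fewer. The low count was 8 with the deposited log ratio and 39 with normexp, and with the trend on probe brightness removed both counts were 0 and the tumor median was 0.0024.

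**Figure D1:**
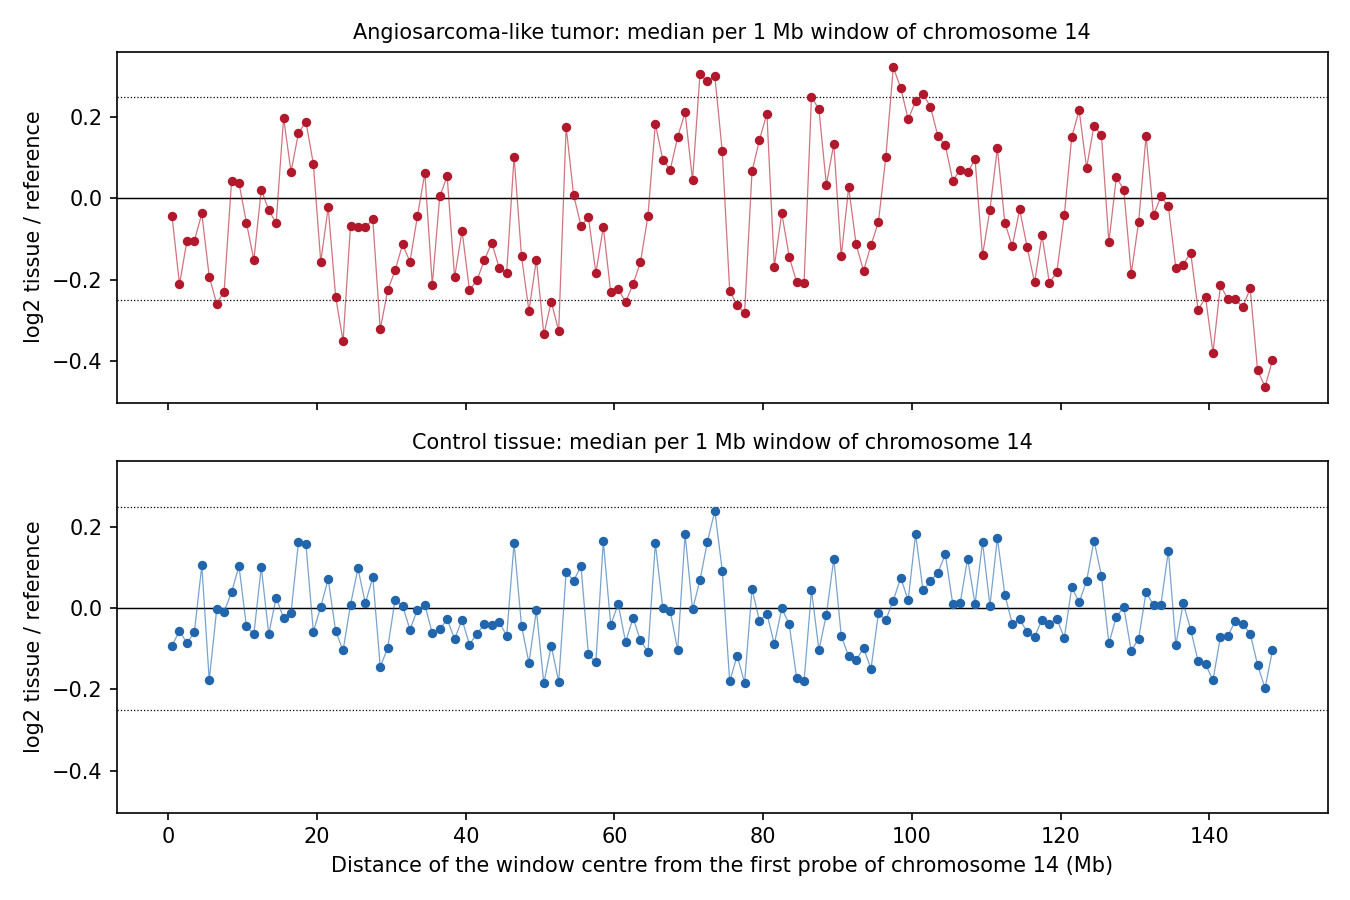
Median log2 ratio of tissue over reference in each of the 149 windows of 1 Mb (vertical axis) against distance from the first chromosome 14 probe in Mb (horizontal axis), with the tumor in the upper panel and the control tissue in the lower one; dotted lines mark -0.25 and 0.25. The tumor profile spans -0.46 to 0.32 and sinks at the far end, and the control profile spans -0.20 to 0.24.

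Among the 18 autosomes, chromosome 14 ranked 6 from the lowest by the median of its probes on both arrays, with -0.07 in the tumor and -0.02 in the control tissue. The acrocentric chromosomes nearest in number of windows lay on the other side of 0. Chromosome 13 had a window median of 0.09 in the tumor and 0.02 in the control tissue, and chromosome 15 had 0.12 and 0.03. The quartiles of the chromosome 14 windows in the tumor, -0.19 and 0.07, overlapped those of chromosome 13, -0.03 and 0.18, and those of chromosome 15, -0.0039 and 0.21. In the tumor 43 of 146 windows of chromosome 13 and 34 of 135 windows of chromosome 15 were below 0. Chromosome 14 thus lay lower than both in the tumor, while its window SD of 0.17 was close to theirs, 0.16 and 0.17. With the trend on probe brightness removed, as described further on, the tumor medians of chromosomes 14, 13 and 15 were 0.0024, 0.01 and 0.0090, with window SDs of 0.07, 0.07 and 0.07.

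**Figure D2:**
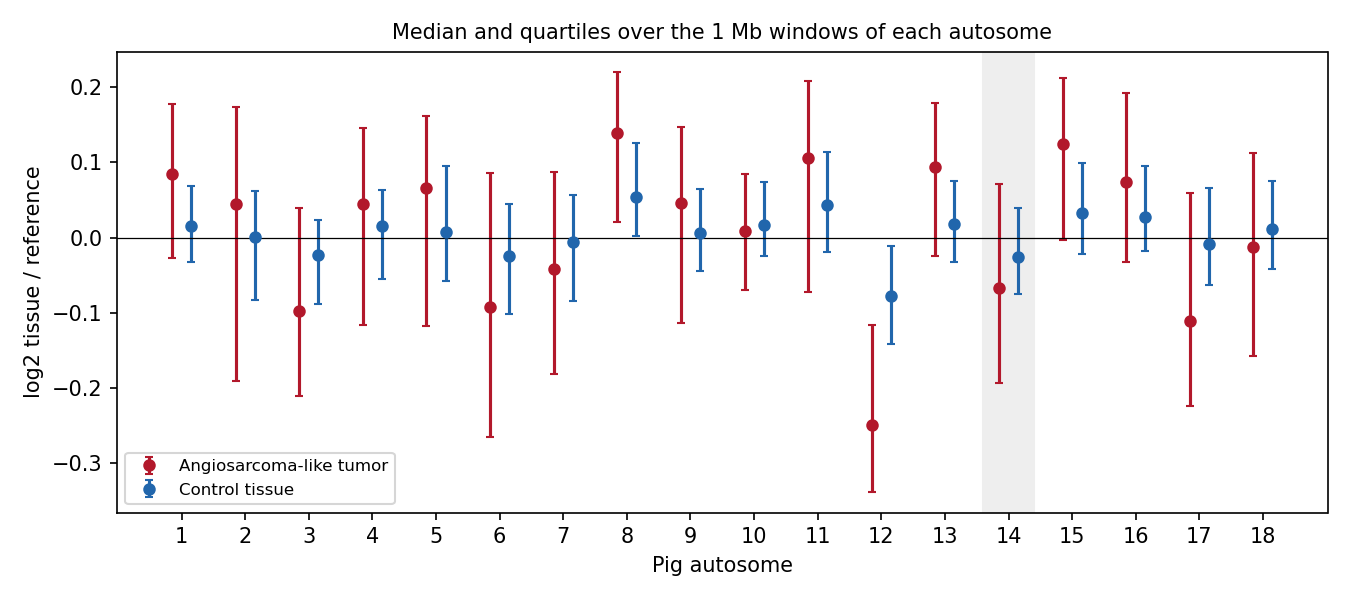
Median log2 ratio over the 1 Mb windows of each pig autosome (vertical axis) by chromosome number (horizontal axis); bars span the lower to the upper quartile over windows, red stands for the tumor and blue for the control tissue, and chromosome 14 is shaded. Chromosome 14 sits below 0 on both arrays, at -0.07 and -0.03, between the positive medians of chromosomes 13 and 15.

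Along the chromosome the tumor profile rose and fell several times. The first 10 Mb had a median of -0.12 over 717 probes (SD 0.45), against -0.0066 in the control tissue. With the trend on probe brightness removed, these medians were -0.02 and 0.03. From 20000001 to 60000000 each of the 4 blocks of 10 Mb was below 0 in the tumor, with probe medians between -0.16 and -0.09, against -0.05 to -0.02 in the control tissue. From 20000001 to 30000000 all 10 windows were below 0 in the tumor and 4 of 10 in the control tissue. Removal of the trend on probe brightness changed the 4 blocks. In order of position, their tumor windows then spanned -0.11 to 0.0079, -0.13 to 0.09, -0.09 to 0.07 and -0.17 to 0.03. The control windows of the 4 blocks together then spanned -0.09 to 0.20. The block from 100000001 to 110000000 was the highest on both arrays. Its probe median was 0.13 in the tumor (SD 0.52 over 819 probes) and 0.07 in the control tissue (SD 0.58). The longest unbroken run of windows above 0 in the tumor held 13 windows, from 96000001 to 109000000, and in the control tissue 16 windows, from 97000001 to 113000000. The longest run below 0 held 15 windows in the tumor, from 134000001 to the end, and 12 in the control tissue, from 137000001 to the end. The longest runs of either sign thus fell in the same parts of the chromosome on both arrays.

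The lowest windows of the tumor were at the distal end. The window from 147000001 to 148000000 had a median of -0.46 (SD 0.30 over 88 probes), against -0.20 in the control tissue, where it was also the lowest. The window before it, from 146000001, had -0.42 (SD 0.38 over 87 probes) against -0.14. The last window, with probes over only part of its length, had -0.40 (SD 0.45 over 30 probes) against -0.10. The window from 140000001 to 141000000, which holds the large stretch without probes, had -0.38 over 22 probes against -0.18. Number 5 in this order lay far from there, from 23000001 to 24000000, with -0.35 (SD 0.33 over 84 probes) against -0.10. All 16 windows at or below -0.25 in the tumor were also below 0 in the control tissue, where their median was -0.13 and their range -0.20 to -0.0026. Of these, 3 neighbouring windows from 50000001 to 53000000 had -0.34, -0.25 and -0.33 in the tumor and -0.18, -0.09 and -0.18 in the control tissue. After removal of the trend on probe brightness, these 3 windows had 0.03, 0.0071 and 0.0092 in the tumor. The control tissue then had -0.0057, 0.05 and -0.04.

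The highest windows of the tumor fell in 4 places. From 71000001 to 74000000, 3 neighbouring windows had medians of 0.31, 0.29 and 0.30, against 0.07, 0.16 and 0.24 in the control tissue. From 97000001 to 99000000, windows had 0.32 and 0.27, against 0.02 and 0.08. Windows starting at 86000001 and at 101000001 had 0.25 and 0.26, against 0.05 and 0.04. All 7 were above 0 in the control tissue as well. With the trend on probe brightness removed, the 3 windows from 71000001 had 0.04, 0.08 and 0.13 in the tumor. Those from 97000001 and 98000001 had 0.09 and -0.01, and those from 86000001 and 101000001 had 0.06 and 0.06. In the control tissue the windows from 71000001, 86000001, 97000001, 98000001 and 101000001 then had -0.06, -0.02, -0.05, -0.08 and -0.05. Those from 72000001 and 73000001 had 0.07 and 0.16 there. High and low windows differed in how far their probes scattered. The median SD over probes within a window was 0.58 for the 7 high windows and 0.36 for the 16 low windows in the tumor, and 0.60 and 0.35 for the same windows in the control tissue. The probes of high windows were thus more scattered around their median on both arrays.

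The far end of the chromosome was low over a long stretch. The 749 probes of the last 10 Mb had a median log2 ratio of -0.29 (SD 0.40), against -0.05 over the 11074 probes before it. In the control tissue the medians were -0.10 (SD 0.38) and -0.01. All 11 windows that reach into the last 10 Mb were below 0 on both arrays and lower in the tumor than in the control tissue, and 6 of them were at or below -0.25 in the tumor. Of the other 138 windows, 10 were that low. Among the last 10 Mb of the 18 autosomes, that of chromosome 14 ranked 2 from the lowest in the tumor and 4 in the control tissue. Chromosome 15 ended with -0.28 in the tumor and -0.11 in the control tissue, close to chromosome 14, and chromosome 13 with -0.12 and -0.03. In steps of 1 Mb counted inward from the last probe, the tumor had -0.47, -0.44 and -0.37, then between -0.34 and -0.21 up to 12 Mb. It first reached a value above 0, 0.01, between 14 and 15 Mb from the end. The control tissue had -0.18, -0.13 and -0.12 in the first 3 steps and first rose above 0 between 11 and 12 Mb, with 0.02. The fall toward the end was therefore present on both arrays and deeper in the tumor. With the trend on probe brightness removed, the last 10 Mb had -0.01 in the tumor and 0.01 in the control tissue.

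**Figure D3:**
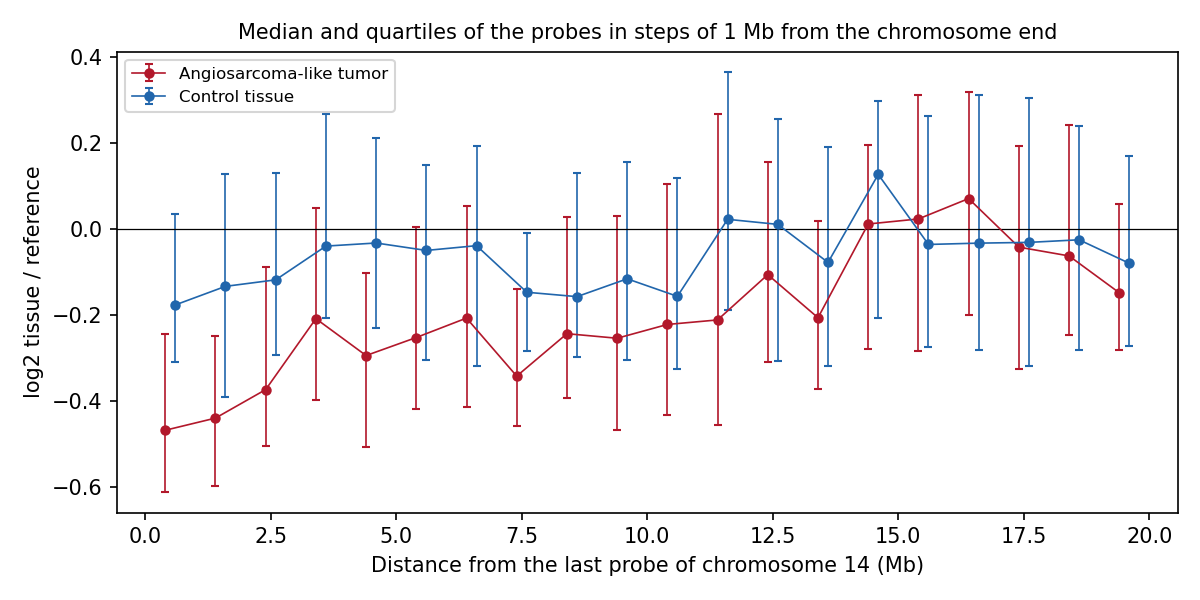
Median log2 ratio of the probes in steps of 1 Mb (vertical axis) against distance from the last chromosome 14 probe in Mb (horizontal axis), red for the tumor and blue for the control tissue; bars span the lower to the upper quartile over probes. The tumor falls to -0.47 and the control tissue to -0.18 in the step next to the end, with overlapping quartiles in every step.

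Window by window, the tumor was lower than the control tissue in 94 of 149 windows of chromosome 14, or 63.1%, where 48.0% of all autosomal windows were lower. With the trend on probe brightness removed, as described further on, the count was 71 of 149. On chromosome 13 the count was 43 of 146 windows and on chromosome 15 it was 40 of 135. The median difference of tumor minus control was -0.06 on chromosome 14 (SD 0.13), 0.06 on chromosome 13 and 0.06 on chromosome 15. Differences at or below -0.25 were found in 5 windows of chromosome 14, where 3.82% of all autosomal windows had one, and differences at or above 0.25 in 3 windows, where 2.66% had one. Differences of this size were thus about as frequent as elsewhere. Across the 149 windows the 2 arrays had a Pearson correlation of 0.69, given as a description since neighbouring windows are not independent and share their probe sequences. Over the other autosomes it was 0.77. With the trend on probe brightness removed, these correlations were 0.12 and 0.19. In 74 windows both arrays were below 0, in 40 both were above 0, and in 35 they lay on opposite sides. Of the 1996 windows of the other autosomes, the same counts were 675, 920 and 401.

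The most negative difference, -0.30, did not belong to the chromosome end. It was found from 109000001 to 110000000, where the tumor had a median of -0.14 (SD 0.43 over 77 probes) and the control tissue 0.16 (SD 0.53). The tumor was below the control tissue in all 4 steps of 250 kb in this window. From 109500001 to 109750000 it was above 0, with 0.11 against 0.22 in the control tissue. The steps hold the same probes as the window, which was picked by its difference, so they give no separate support. The next 3 were the last 3 windows of the chromosome, with -0.30, -0.28 and -0.27, followed by the window from 6000001 to 7000000, with -0.26 in the tumor against -0.0026. The most positive differences were 0.32 from 87000001 to 88000000, where the tumor had 0.22 and the control tissue -0.10, and 0.30 from 97000001 to 98000000. A difference of 0.25 followed from 68000001 to 69000000, where the tumor had 0.15 and the control tissue -0.10. After it came 0.24 in the window from 71000001 and 0.22 in that from 15000001, where the tumor had 0.20 and the control tissue -0.02. This order depended on brightness. With its trend removed, the window from 109000001 had a difference of -0.42, the last 3 windows had -0.11, -0.02 and -0.09 in order of position, and the window from 6000001 had -0.11. Of the positive differences, those from 68000001 and 87000001 were then 0.26 and 0.26, and that from 97000001 was 0.14. Those from 71000001 and 15000001 were 0.10 and 0.10.

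**Figure D4:**
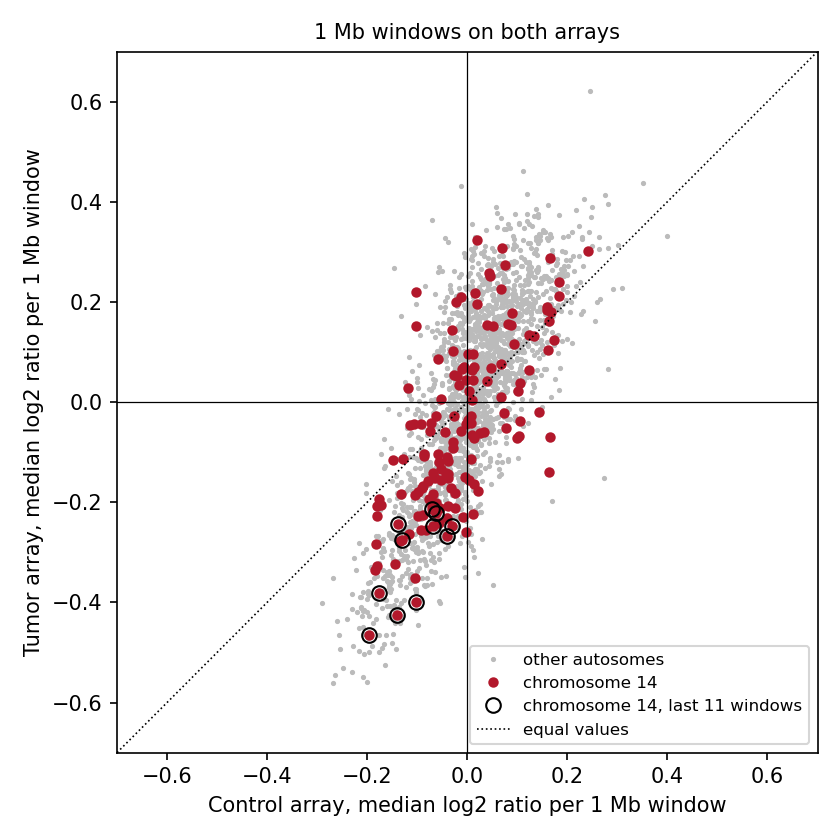
Median log2 ratio of each 1 Mb window on the tumor array (vertical axis) against the control array (horizontal axis); grey points are windows of the other autosomes, red points those of chromosome 14, open circles its last 11 windows, and the dotted line marks equal values. The chromosome 14 windows lie within the cloud of the other autosomes, and its last 11 windows lie below 0 on both axes and below the dotted line.

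The ratio of tissue over reference was also taken apart into its channels, by setting each channel of the tumor array against the same channel of the control array, probe by probe and centred on the autosomes. In the last 10 Mb the tissue channel of the tumor array lay 0.11 below that of the control array on the log2 scale (difference -0.11), and the reference channel 0.05 above it. Over the first 10 Mb these differences were -0.05 and 0.05. Over the whole chromosome they were -0.02 and 0.01. The reference channels hold reference liver on both arrays, and the sources used here do not state whether it was the same DNA. Over these regions they differed in the direction opposite to the tissue channels.

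Intervals were called by the score of a stretch of probes, which is the sum of their log2 ratios divided by the noise of the array and by the square root of their number. Intervals were kept from 3 probes and a score of 6 upward where their mean was 0.25 or more in size, and the limit on the mean acted after the search. Such intervals held 9.25% of the chromosome 14 probes in the tumor, where 7.21% of the autosomal probes were held, and 0.152% in the control tissue, where 0.157% were held. In the tumor the long terminal loss from 137959126 to 148498620 held 791 probes with a mean of -0.28 (SD 0.41), of which 625 were below 0. It was not called from the deposited log ratio, after normexp, with the control array subtracted or with the brightness trend described further on removed. Its start was not fixed where it was called. With centring on the mode it began at 134604151 and held 1063 probes. With probes well above background alone it began at 134648551 and held 960 probes. In the control tissue 495 of the 791 probes were below 0 and the mean of the 791 was -0.07. A loss from 75280201 to 78402120 had 196 of 250 probes below 0 in the tumor, with a mean of -0.26 (SD 0.40), and 177 below 0 in the control tissue, with a mean of -0.14. The 2 gains were short. From 15559426 to 15789795, 25 probes had a mean of 0.50 (SD 0.56) in the tumor and 0.22 in the control tissue, and from 80190101 to 80446370, 28 probes had 0.46 (SD 0.43) and 0.14. Each of the 4 tumor intervals thus had a mean of the same sign in the control tissue. None of the other 3 was called after normexp, with centring on the mode, with the control array subtracted or with the brightness trend removed. From the deposited log ratio 11 probes of the first gain, from 15707426 to 15789795, were called and no other interval. With probes well above background alone the gain from 15559426 was not called, and a gain of 435 probes was called from 96946476 to 104890420, with a mean of 0.25, and another of 54 probes from 78666626 to 79600920, with a mean of 0.30.

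A further 10 stretches of the tumor array passed the score and had a smaller mean, and they held 60.9% of the chromosome 14 probes. No share over all autosomes is given for such stretches, so 60.9% cannot be called particular to chromosome 14. The longest ran from 22072351 to 64283845, with 3288 probes and a mean of -0.13 (SD 0.44), against -0.0024 in the control tissue. Tumor windows along this stretch spanned -0.17 to 0.09 after removal of the trend on probe brightness. Stretches with positive means included one from 96323026 to 105536070, with 0.17 (SD 0.56) in the tumor and 0.11 in the control tissue. Within these stretches the limit applied during the search called more intervals, so that the tumor array had 23 on chromosome 14, of which 15 were losses, and the control array had 9, all of them gains. These held 30.0% of the chromosome 14 probes in the tumor, where 32.5% of the autosomal probes were held, and 3.40% in the control tissue, where 5.58% were held. A loss from 47961251 to 52893395 then had the highest score after the terminal one, with a mean of -0.27 (SD 0.38 over 391 probes), against -0.08 in the control tissue. After removal of the brightness trend, the windows from 48000001 to 53000000 had medians between 0.0071 and 0.07 in the tumor. In the control tissue they then lay between -0.04 and 0.07.

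The 3 intervals called in the control tissue were all gains of few, dim probes. From 137187676 to 137217320, 6 probes had a mean of 1.06 in the control tissue and 0.89 in the tumor, and none of the 6 was well above background in both channels on either array. From 117374176 to 117401970, 4 probes had a mean of 1.32 in the control tissue and values from 0.34 to 1.38 in the tumor, and 3 of the 4 were not well above background. From 131358326 to 131473070, 8 probes had 1.02 and 0.30, and 4 of the 8 were not well above background. Ratios of signals at background give no reliable size for these gains. With probes well above background alone, 0 intervals were called in the control tissue.

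A loss of 3 probes from 101117301 to 101168220 was not called in the tumor with the limit applied after the search. It was called with the limit applied during the search, with a mean of -2.00 (SD 1.09). The control tissue had a mean of 0.35 there. Log2 ratios of the 3 probes were -0.81, -2.27 and -2.93 in the tumor and -0.40, 1.16 and 0.28 in the control tissue. At the last 2 of these probes the tumor channel was not well above background, with background-subtracted signals of -6.60 and 5.07, while the control tissue had 26.0 and 44.2. The references of the tumor array had 37.0 and 73.6 there and those of the control array 23.4 and 73.6, all well above background. The tumor ratios at both probes, and the mean built on them, are therefore bounds and not measured sizes. Of the short intervals of up to 10 probes on chromosome 14, this was the only loss.

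Probe brightness moved with the profile on both arrays. For each probe, local brightness was averaged over the probes up to 250 kb away from the log2 signal of the reference on the other array, so that it shares no measurement with the ratio it is set against. Across the 149 windows the tumor medians had a Pearson correlation of -0.90 with this brightness and the control medians one of -0.68, and over the other autosomes these were -0.92 and -0.77. Brightness had a median of 10.7 in the 16 low windows of the tumor and of 8.39 in the 7 high ones, with no overlap (10.2 to 11.2 and 7.68 to 8.59). The last 10 Mb was bright, with a median reference signal of 277 on the tumor array against 136 over the rest of the chromosome. When a lowess trend on brightness, learned on the other 17 autosomes, was removed, no window of chromosome 14 was at or beyond -0.25 or 0.25 in the tumor. The window SD fell to 0.07 on both arrays, and the correlation between the arrays was 0.12. The terminal loss then had a mean of -0.0073 in the tumor and 0.04 in the control tissue. The lowest window was then the one from 109000001 to 110000000, with -0.22 in the tumor and 0.20 in the control tissue. The loss from 75280201 had a mean of 0.02 in the tumor. The gain from 15559426 had a mean of 0.30 in the tumor and 0.13 in the control tissue, and that from 80190101 had 0.23 and 0.02. None of the 4 intervals was called after this removal. The 3 probes from 101117301 to 101168220, which were not among the 4, were then called, with ratios at 2 of them that are bounds. A copy number change that follows brightness would be removed along with the trend.

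**Figure D5:**
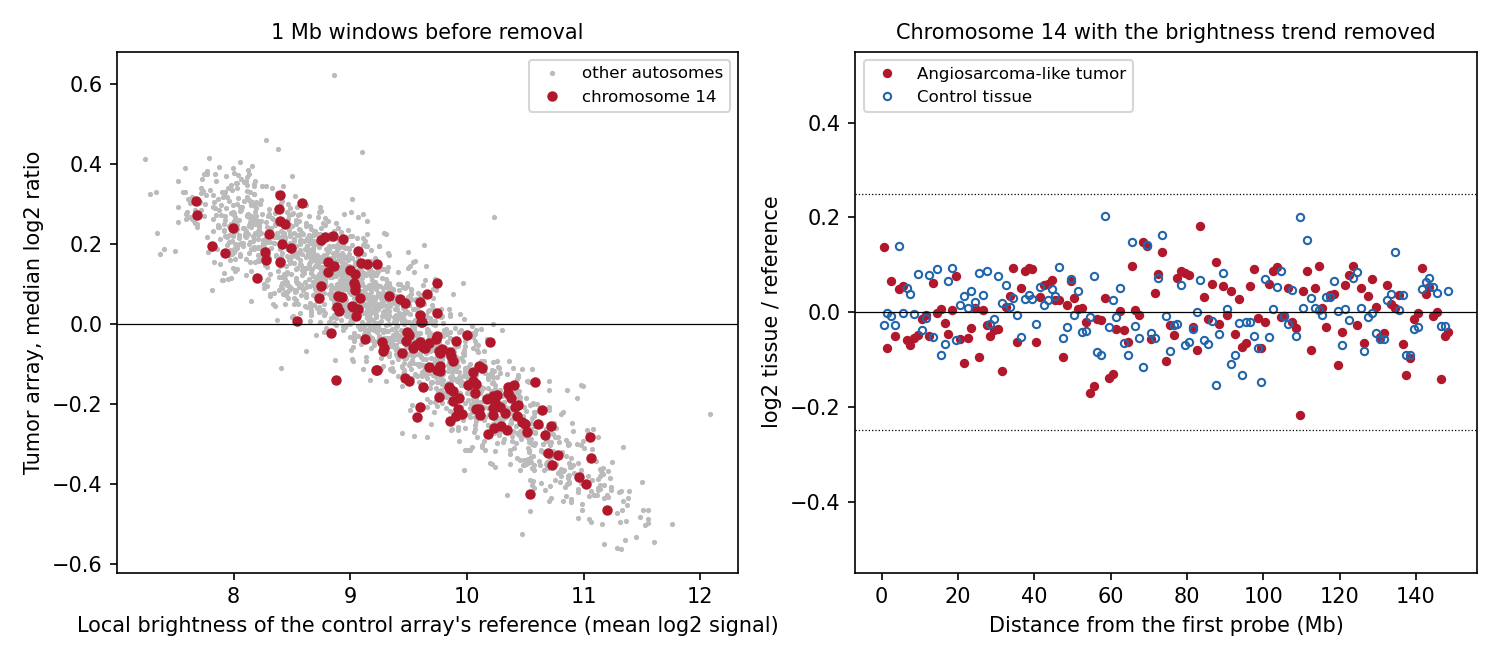
Left, median log2 ratio of each 1 Mb window on the tumor array (vertical axis) against local brightness, averaged from the log2 signal of the control array's reference (horizontal axis), grey for the other autosomes and red for chromosome 14; right, the chromosome 14 windows with the trend removed against distance from the first probe in Mb, filled red for the tumor and open blue for the control tissue, with dotted lines at -0.25 and 0.25. Ratios fall as brightness rises, and with the trend removed all tumor windows lie between -0.22 and 0.18.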

How the data were processed

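Each array was scanned and its spots were extracted by the authors with Agilent Feature Extraction 11.0.1.1. The deposited intensity values are median signals of spot and local background, and processed signals after background subtraction and linear dye scaling. A log10 ratio (red against green) was deposited for every spot, and the deposited series table holds these log10 values (largest difference 0). This ratio is 0 where the software gave none, at 332 chromosome 14 probes of the tumor array and 331 of the control array.

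Log2 ratios of Cy3 over Cy5 were formed from processed signals. Spots with an outlier flag were dropped (27 and 10 on the arrays of tumor and control tissue), and the median of chromosomes 1 to 18 was set to 0 on each array, with no loess or quantile step. Probes were grouped by start into 1 Mb windows of at least 5 probes. Noise was taken from differences of neighbouring probes, 0.401 for the tumor and 0.422 for the control tissue. Intervals were searched recursively, and the search was tested on simulated data. No rate of false calls is given from that test, either under a trend on probe brightness or for short intervals. The simulation therefore cannot decide whether the intervals called on these arrays are real, and no conclusion is drawn from it.

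Named regions were the called intervals, the 5 lowest and 5 highest windows, the 5 largest differences each way, both ends and 10 Mb blocks. The chromosome, these rules and the gene list were chosen with earlier results of these data known. Alternatives were another centre, flagged spots kept, only probes well above background, the deposited ratio, normexp (offset 50), brightness removal by lowess (fraction 0.3), 5 Mb windows and other limits. The files hold no probe sequence. Computations used limma 3.58.1 in R 4.3.3, and statsmodels 0.14.6, scipy 1.17.1, matplotlib 3.10.9, numba 0.67.0, pandas 2.3.3 and numpy 2.4.6 in Python 3.11.15. Precision is limited by the single array per tissue.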

Additional observations from a re-analysis of the deposited data

How the results depend on the processing

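No paired analysis was possible because each tissue had 1 array. With the brightness trend removed, the chromosome 14 median was 0.0024 in the tumor and 0.00029 in the control tissue, so both changed sign. The last 10 Mb then had -0.0131 in the tumor and 0.0117 in the control tissue, and 0 windows were low, 0 were high and 1 interval over 0.0509 Mb was called in the tumor. Centring on the mode gave the control tissue a median of 0.0360, and in the tumor 27 low windows, 4 high windows and 1 interval. That interval was the terminal loss, then from 134604151 to 148498620. The deposited log ratio and the series table gave the tumor a median of -0.0293, 8 low windows and 1 interval over 0.0824 Mb. Normexp gave 39 low windows, 2 high windows and 0 intervals over 0 Mb. The terminal loss was thus not called with normexp or the deposited ratio, while the last 10 Mb had -0.41 and -0.26 in the tumor. The control tissue had a median of -0.07 with normexp, and its window SD was 0.15 with normexp and 0.06 with windows of 5 Mb. In the control tissue the last 10 Mb had -0.25 with normexp and -0.04 with the mode. There 0 intervals were called with the mode, probes well above background, normexp, brightness removal or a score of 12, 1 with at least 10 probes, 8 with a mean of at least 0.1 and 9 with the limit during the search. With probes well above background there were 11 high windows, and the called length was 26.0 Mb. Windows of 5 Mb gave 2 low and 0 high windows, a limit of 0.15 gave 54 and 25, and a limit of 0.4 gave 2 and 0. A score of at least 12 left 1 interval, the terminal loss. A mean of at least 0.1 gave 14 intervals over 105 Mb, and one of at least 0.4 gave 2 over 0.487 Mb. The limit applied during the search gave 23 over 44.9 Mb, and subtraction of the control array gave 0 intervals over 0 Mb. Of the 149 windows, 71 were lower in the tumor with brightness removed, fewer than were not, and 83 to 129 under the other alternatives with 1 Mb windows. Apart from what the limits and window size fix by construction, the cause was not tested. At 16.8% of the chromosome 14 probes of the tumor array at least 1 channel was not well above background, and median brightness was lower in high windows (8.39) than in low ones (10.7).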

Other observations

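Probes with signal in 3 of the 4 channels were counted along chromosome 14, a count chosen after the values of the 3-probe loss were seen. At 9544 probes both references and the control tissue were well above background, and the tumor was not at 184 of them, or 1.93%, against 2.05% over chromosomes 1 to 18. In the opposite case, 413 of 9773 probes, or 4.23%, lacked only the control tissue, against 5.88% over these chromosomes. Neighbouring probes that both lacked only the tumor formed 7 pairs on chromosome 14 and 36 pairs over all 18 autosomes. Chromosome 14 held 9544 of the 127540 autosomal probes counted. Its pairs from 12255326 and from 12265501 share a probe, and the 7 pairs lay in 6 windows of 1 Mb. With so few pairs, no excess on chromosome 14 is claimed. At 6 of the 7 pairs the background-subtracted tumor signal was above 0 at both probes, and at the pair from 101144126 to 101168220, within the 3-probe loss, it was -6.60 and 5.07. For the control tissue there were 22 such pairs on chromosome 14 and 442 over the autosomes.

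Single probes far from 0 were mostly dim. Of 11822 chromosome 14 probes used on both arrays, 360 had a log2 ratio at or below -1 in the tumor and 202 in the control tissue, with 45 in common, a share of 12.5% and of 22.3%. At or above 1 there were 173 in the tumor and 365 in the control tissue, with 35 in common. Ratios at or below -1 made up 3.04% of the chromosome 14 probes and 3.03% of the autosomal probes in the tumor, and 1.71% of the chromosome 14 probes and 3364 of 168302 autosomal probes in the control tissue. Ratios at or above 1 made up 1.46% of the chromosome 14 probes and 3363 of 168288 autosomal probes in the tumor, and 3.09% and 3.56% in the control tissue. Among the 9359 probes well above background on both arrays, the counts at or below -1 were 60, 19 and 8, and those at or above 1 were 38, 52 and 4. No autosomal share is given for this subset. Across probes the Pearson correlation between the arrays was 0.50 for those well above background and 0.16 for the 2463 others, which describes these 2 arrays and not the tissues.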
